A study of Mus musculus with 8 samples.

Results

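Axon guidance genes are the semaphorins with their plexin and neuropilin receptors, the ephrins with their Eph receptors, the Slits with their Robo receptors, and the netrins with Dcc and the Unc5 receptors. They were measured here in spheres grown from the superior mesenteric ganglion of mouse neuroblastoma-model animals, in medium with or without retinoic acid (RA). Members were chosen by symbol: every gene on the array named Sema3 to Sema7, Plxn, Epha, Ephb, Efna, Efnb, Slit1 to Slit3 or Robo, together with Nrp1, Nrp2, Ntn1, Ntn4, Dcc and Unc5a to Unc5d. This gave 68 of the 20660 symbols on the array, with 88 probes. Genes entered the test if a probe of theirs rose well above background on 4 or more arrays of the 8. That left 57 of the 68 members among 13539 genes tested. The 11 members that failed this filter were Sema3d, Sema6b, Plxnb3, Plxna4os1, Epha3, Epha4, Epha6, Robo3, Robo4, Ntn4 and Unc5d. Plxna4os1 is an antisense transcript of Plxna4 that the symbol rule also caught, and it is no receptor.

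All 8 arrays came from hemizygous TH-MYCN mice (TH-MYCN+/-) on a 129+Ter/SvJcl background, aged 3 weeks. In these mice the tyrosine hydroxylase (TH) promoter drives human MYCN in sympathetic cells, so the transgene was carried by both groups and there was no wild-type group. Single cells of a ganglion were split between RA (+) medium and RA (-) medium and grown for 8 days as primary spheres, with 4 arrays per medium. Arrays with the same number share their starting cells, called an animal here, although the labels do not say how many mice gave each preparation. Levels are log2 intensities minus the array's 75th percentile, so 0 is the level of that percentile. A change is the level without RA minus the level with RA, with its standard error (SE). The SE comes from the limma fit over 4 animals, which moderates each gene's variance with that of the other genes, so it is not that gene's own spread alone. "Called" means an adjusted p under 0.05 (limma with the animal as a block, Benjamini-Hochberg over all 13539 genes).

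Semaphorins, ephrins, Slits and netrins are cues that a growing neurite meets, and the plexins, neuropilins, Eph, Robo, Dcc and Unc5 proteins are the receptors that read them. Most of these pairs turn or collapse the growth cone by acting on the cytoskeleton, although netrin bound to Dcc attracts and netrin bound to Unc5 repels. In the sympathetic lineage, semaphorin and neuropilin signalling helps to place neural crest cells and to shape axon outgrowth and target innervation, and RA is known as an inducer of neurite growth in neuroblastoma cells.

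All 10 markers of sympathetic neurons passed the filter, and 3 were higher and 4 lower without RA. The summed level of that list was 9.73 to 9.91 with RA and 9.39 to 9.53 without. The sums of this and the other lists cover tested genes only. Of 11 Schwann and satellite glia markers 9 were tested, with 4 lower and 0 higher. Their summed level was 4.81 to 4.94 with RA and 3.83 to 4.19 without. Of that list, Erbb3 did not stand well above background on a single array. Of 9 fibroblast markers 6 were tested (1 higher, 4 lower), and they summed to 2.70 to 2.96 with RA and 2.32 to 2.95 without. Pdgfra and Lum were not well above background anywhere. For endothelium (4 of 8 genes tested, 0 higher, 1 lower) the sums were 3.09 to 3.43 and 3.13 to 3.32. For the immune list (5 tested of 8 measured genes, 0 higher, 3 lower) they were 4.26 to 4.57 and 3.89 to 4.09. Cdh5, Tek, Emcn, Ptprc, Cd14 and Lyz2 were not well above background on any array. The part of these shifts in the values below was not tested, and in such bulk spheres fewer cells of a type and less RNA per cell cannot be told apart. Between 48.5% and 55.3% of spots were well above background, and the first principal component of all tested genes (81.7% of the variance) separated the media.

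Removal of RA changed most axon guidance members, and more of them fell than rose. Of the 57 tested members, 32 (56.1%) were lower without RA, against a background of 28.2% of all tested genes, and 13 (22.8%) were higher, against 36.1%. Together 45 members (78.9%) were called, against 64.3% of all genes. Of the 57 tested members, 14 (24.6%) were called with log2 changes of −1 or lower, against 10.6% of all genes, and 3 (5.26%) were called with log2 changes of 1 or higher, against 7.52%. The arrays of the media did not overlap for 35 members (61.4%), against 53.3% of all genes. The median change was −0.36 over the members and 0.07 over all genes. Of the 30 ligands tested, 8 were higher and 17 lower, and of the 27 receptors 5 were higher and 15 lower. Ntn1, Sema5b and Sema3e count among the lower members, although they met the filter only through their RA arrays. A filter on all 8 arrays leaves them out. Under it 12 of 48 tested members were higher and 26 lower, beside 40% and 27.2% of all genes. With arrays scaled to spike-in controls in place of the 75th percentile, the split was 11 higher and 15 lower, beside 20.4% and 13.2% of all genes, and the median of the members was −0.21 beside 0.22 for all genes. The calls lost there were those of Sema6c, Sema6a, Sema4a, Sema4b, Sema4d, Sema3g, Plxna3, Plxna2, Plxnc1, Nrp2, Plxnd1, Nrp1, Plxnb2, Epha10, Ephb6, Efna3, Efna2, Efna4, Slit3 and Slit2. Under quantile normalization 9 members were higher and 31 lower, beside 30.4% and 31.8% of all genes. Sema3g, Sema4c, Plxnb2, Epha5 and Ephb3 did not pass there. Without the animal as a block Sema3g, Sema4d and Slit3 did not pass (adjusted p = 0.0751, 0.0871 and 0.0573).

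**Figure D1:**
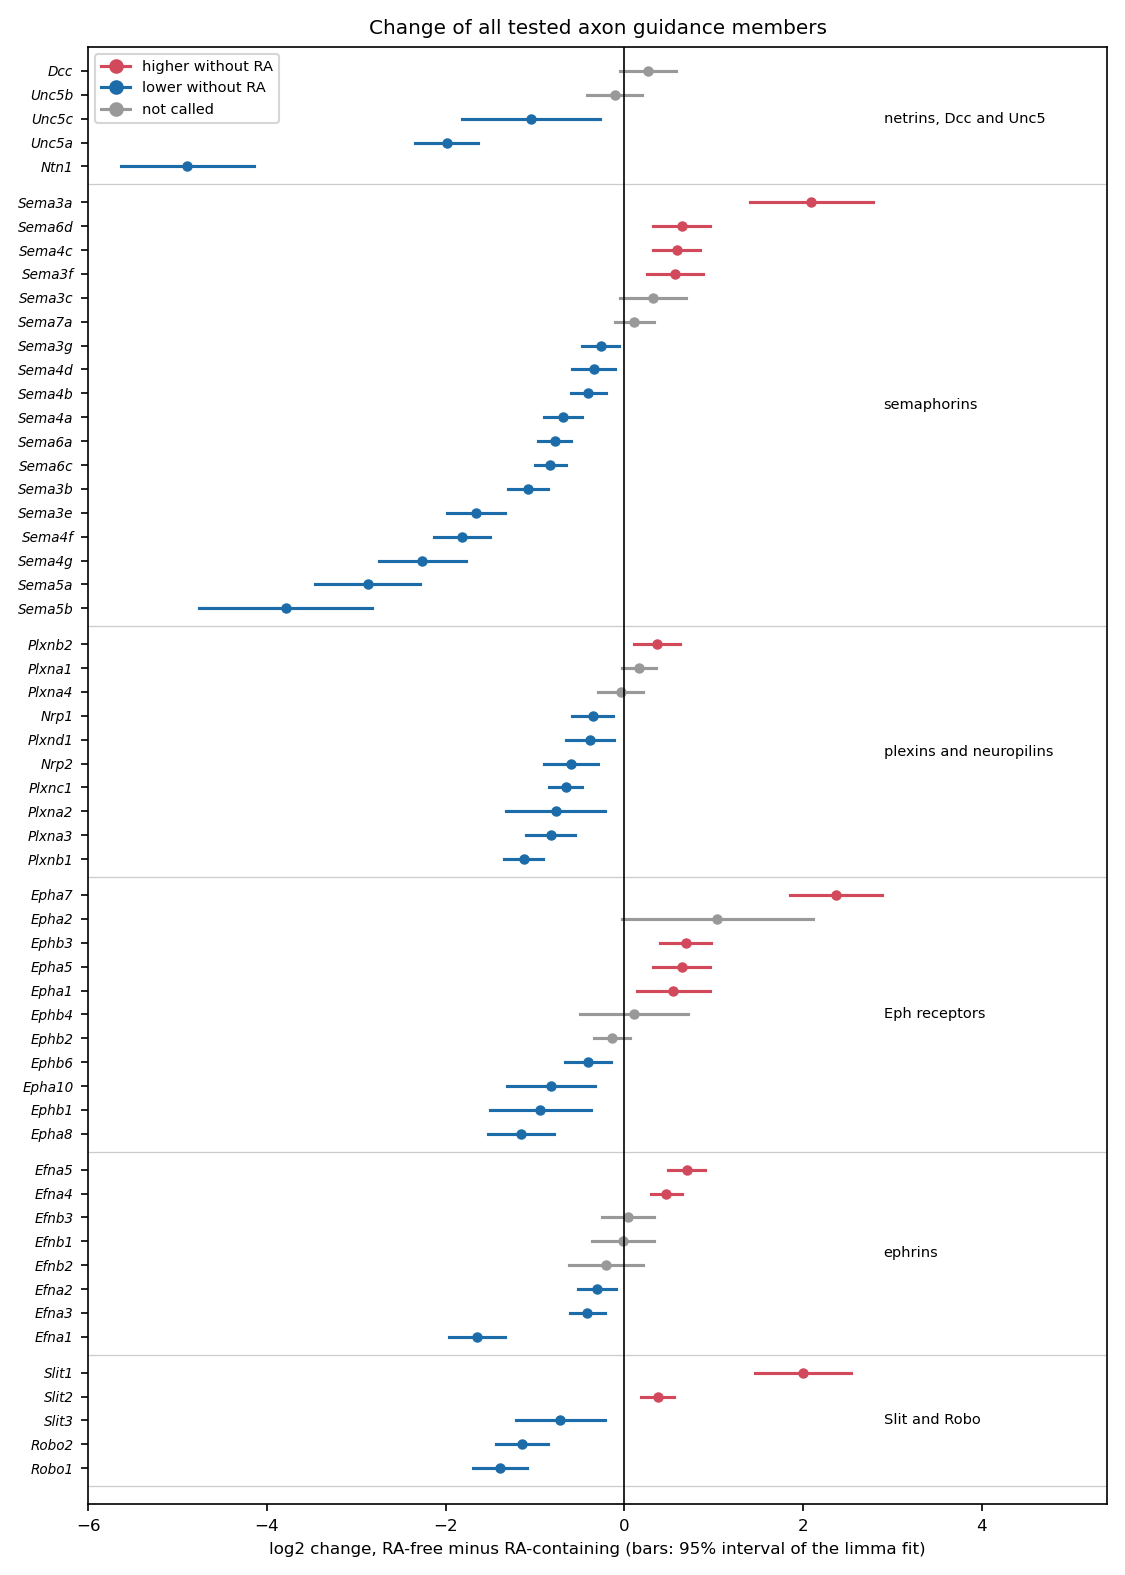
Change without RA minus with RA (log2, x axis) for each of the 57 tested members (y axis, grouped by family), as a point with its 95% confidence interval from the limma fit, in red if called higher, blue if called lower and grey if not called. Ntn1 (−4.89) and Sema5b (−3.79) lie farthest left, and Epha7 (2.37), Sema3a (2.09) and Slit1 (2.00) farthest right.

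Among the netrins and their receptors the called members all fell. Of the 5 tested, 3 (60%) were lower and 0 higher, against 28.2% and 36.1% of all genes. Ntn1 (NM_008744), the secreted netrin that binds Dcc and Unc5 receptors, stood at −0.12, −0.78, −0.38 and −1.02 on RA arrays 1 to 4 and at −6.04, −5.68, −4.34 and −5.80 on RA-free arrays 1 to 4. It was well above background on all arrays with RA and on none without, so the groups were far apart and the RA-free level is only a bound. Measured against the lowest signal that counts as well above background, Ntn1 was at least 13.1-fold lower without RA. The fitted change was −4.89 (SE 0.30, adjusted p = 0.000125). Ntn1 met the filter only through its RA arrays, so this p-value rests on RA-free signals near background and is no added support. After normexp background correction with quantile normalization, which adds an offset to every spot, the fitted change was −1.75.

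The Unc5 receptors, which mediate repulsion from netrin and can signal cell death when netrin is missing, differed among themselves. Unc5a (NM_153131) stood at 2.20, 1.84, 2.26 and 1.86 with RA and at 0.48, −0.20, −0.20 and 0.12 without. Every RA-free array lay below every RA array, with a change of −1.99 (SE 0.14, adjusted p = 0.000183). Unc5c (NM_009472) stood at −2.37, −2.45, −2.30 and −2.71 with RA and at −2.44, −4.17, −4.08 and −3.32 without. Its groups overlapped, since animal 1 hardly changed, and the change was −1.05 (SE 0.31, adjusted p = 0.0284). Unc5c was well above background on 2 of the 4 RA-free arrays. Its call was lost without animal 2 (−0.82, adjusted p = 0.0978) and without animal 3 (−0.80, adjusted p = 0.102), and under normexp its change was −0.30. Unc5b did not pass the test (−0.11, 95% confidence interval −0.42 to 0.20).

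Dcc, the attractive netrin receptor, did not pass on its brighter probe, with a change of 0.26 (95% interval −0.05 to 0.57, adjusted p = 0.113). That probe was very bright, with a mean level of 8.03 with RA and 8.30 without. A second probe designed to the same transcript gave 2.60 (SE 0.09), from a mean of −4.73 with RA to −2.13 without, and was well above background on 1 array with RA and on all 4 without. The probes of Dcc therefore disagreed widely in level and in size of change, and which of them reads Dcc was not tested. With their mean the gene was called higher (1.43, adjusted p = 0.000108), a value that carries the same doubt.

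**Figure D2:**
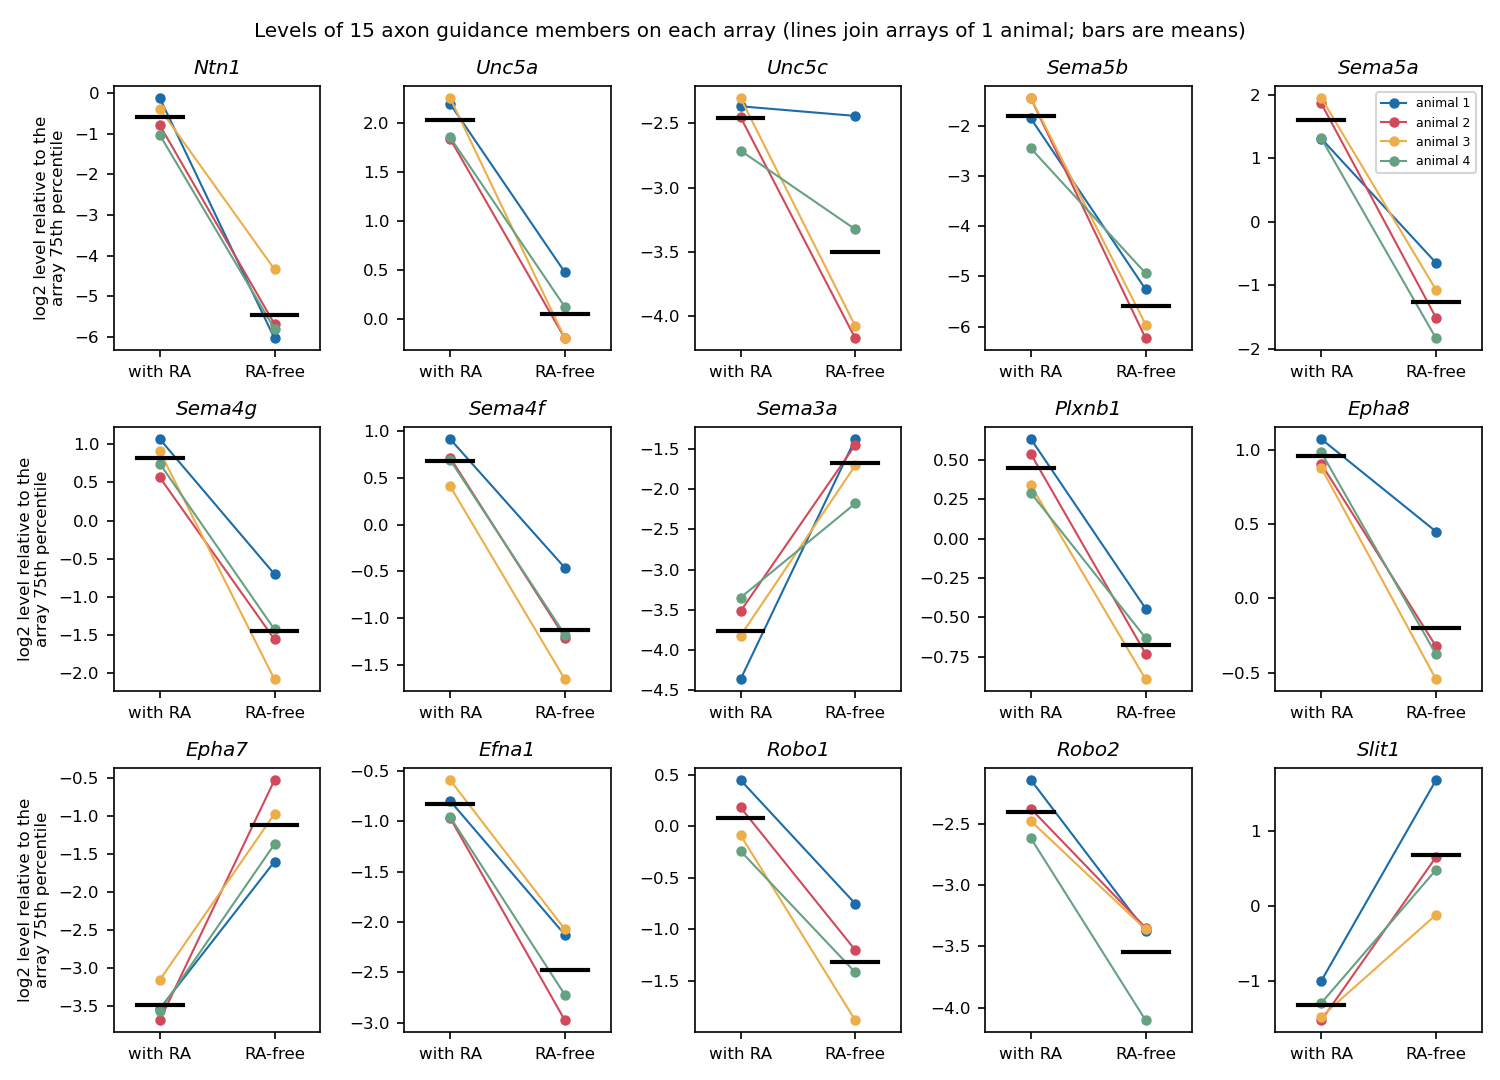
Level on each of the 8 arrays (log2 relative to the array's 75th percentile, y axis) for the 15 members described array by array, 1 panel per gene, with RA on the left and RA-free on the right, coloured lines joining the arrays of an animal, and bars at the means; each panel has its own scale. In 14 of the panels the media do not overlap, and in Unc5c they do. The panels were picked by call and size of change, so this separation was largely set by the choice. Over all tested genes the media did not overlap in 53.3%.

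Of the 18 semaphorins tested, 12 (66.7%) were lower and 4 (22.2%) higher without RA, against 28.2% and 36.1% of all genes. Of the 14 members called with log2 changes of −1 or lower, 6 were semaphorins. Both class 5 semaphorins, transmembrane proteins with thrombospondin repeats that bind plexins, fell. Sema5a (NM_009154) stood at 1.31, 1.86, 1.95 and 1.31 with RA and at −0.65, −1.51, −1.07 and −1.84 without. The groups were separate in every animal, with a change of −2.87 (SE 0.24, adjusted p = 0.000281). Sema5b (NM_013661) stood at −1.86, −1.46, −1.45 and −2.45 with RA and at −5.26, −6.23, −5.96 and −4.94 without. It was well above background on no RA-free array, which makes it at least 5.58-fold lower. The fit gave −3.79 (SE 0.39, adjusted p = 0.000561), its other probe −2.48, also with no RA-free array well above background, and the normexp setting −0.98. Like Ntn1, Sema5b met the filter only through its RA arrays, so its p-value is no added support.

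The 6 class 4 semaphorins, transmembrane ligands mostly of the B and D plexins, were all called, against 64.3% of all genes. Of them, 5 were lower and 1 higher, against 28.2% and 36.1% of all genes. Sema4g (NM_011976) stood at 1.07, 0.56, 0.90 and 0.75 with RA and at −0.70, −1.55, −2.08 and −1.42 without. Sema4f (NM_011350) stood at 0.92, 0.72, 0.41 and 0.69 with RA and at −0.46, −1.21, −1.66 and −1.18 without. Both genes were lower on every RA-free array, with animal 1 nearest to its RA partner. The change was −2.26 for Sema4g (SE 0.20, adjusted p = 0.000336) and −1.81 for Sema4f (SE 0.13, adjusted p = 0.000174). Sema4a (−0.69), Sema4b (−0.40) and Sema4d (−0.34) fell less, and Sema4c rose by 0.58 (SE 0.11). The call for Sema4c was lost under quantile normalization and under normexp (0.16 in both), and that for Sema4d without animal 2 (−0.37, adjusted p = 0.0619) or animal 4 (−0.36, adjusted p = 0.0661).

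Class 3 semaphorins are secreted and signal through neuropilins and A plexins, and they moved in both directions. Of 6 tested, 3 (50%) were lower, against 28.2% of all genes, and 2 (33.3%) higher, near the 36.1% of all genes. Sema3a (NM_009152), the collapsin that repels sympathetic and sensory axons, stood at −4.37, −3.52, −3.83 and −3.35 with RA and at −1.37, −1.44, −1.70 and −2.18 without. The RA-free arrays were all higher, with a change of 2.09 (SE 0.28, adjusted p = 0.0014), although 1 RA array was not well above background and normexp gave 0.80. Sema3f, the ligand of neuropilin-2, rose by 0.57 (SE 0.12). Sema3e, which binds plexin-D1 without a neuropilin, had a fitted change of −1.66 (SE 0.13) and was well above background on no RA-free array, a fall of at least 1.51-fold, with −0.27 under normexp. Sema3b fell by 1.08 (SE 0.09). Sema3g had −0.27 (SE 0.09), a call that was lost without any 1 of the 4 animals (−0.32 to −0.20, adjusted p from 0.0534 to 0.146). Sema3c (0.32) did not pass, although it did without animal 4 (0.47, adjusted p = 0.0342).

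Of the class 6 semaphorins, ligands of A plexins that also act as receptors, Sema6c (−0.83, SE 0.07) and Sema6a (−0.78, SE 0.07) fell. Sema6d had 0.64 (SE 0.13) on its brighter probe and −0.46 on another. Sema7a, the membrane-anchored member that binds plexin-C1 and integrins, did not pass (0.11, 95% interval −0.10 to 0.33).

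The promoters of the class 5 semaphorins and of Sema3a are shown because these genes changed most on either side of the family and because RA acts through nuclear receptors that bind hexamers of the AGGTCA kind. They were picked after the values and matches were seen. Each run covers 250 bases before to 50 after an annotated start (RefSeq, GRCm38.p6), 5′ to 3′ on the gene's strand; capitals mark the base at the start and any match to a searched motif. Sema5b lies at chr16:35541112-35541411 (+ strand), Sema5a at chr15:32244563-32244862 (+ strand) and Sema3a at chr5:13396534-13396833 (+ strand). A transcript's start need not be where the RefSeq gene record begins: those used for Sema5b and Sema3a lie inside the gene record, that of Sema3a far inside it.
Sema5b: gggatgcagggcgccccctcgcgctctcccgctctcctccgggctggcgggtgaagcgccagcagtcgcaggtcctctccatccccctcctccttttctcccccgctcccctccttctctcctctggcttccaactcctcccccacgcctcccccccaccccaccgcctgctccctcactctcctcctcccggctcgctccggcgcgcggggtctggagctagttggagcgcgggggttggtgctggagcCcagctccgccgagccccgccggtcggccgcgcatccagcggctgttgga
Sema5a: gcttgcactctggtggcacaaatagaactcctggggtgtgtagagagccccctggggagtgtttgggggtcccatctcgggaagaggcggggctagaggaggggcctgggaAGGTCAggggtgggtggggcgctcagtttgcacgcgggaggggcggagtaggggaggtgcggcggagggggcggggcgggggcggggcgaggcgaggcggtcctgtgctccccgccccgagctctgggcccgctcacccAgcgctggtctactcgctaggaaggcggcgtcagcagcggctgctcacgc
Sema3a: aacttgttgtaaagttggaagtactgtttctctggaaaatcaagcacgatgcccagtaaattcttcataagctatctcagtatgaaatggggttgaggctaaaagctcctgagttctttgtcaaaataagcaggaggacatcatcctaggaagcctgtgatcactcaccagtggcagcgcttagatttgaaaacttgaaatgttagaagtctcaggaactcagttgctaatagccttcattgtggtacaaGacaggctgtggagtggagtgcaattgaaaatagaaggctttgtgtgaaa
Sema5a held 1 AGGTCA, beginning 139 bases before the start, and the windows of Sema5b and Sema3a held no searched motif. Sema5b had 27 CG dinucleotides, Sema5a 23 and Sema3a 2.

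Across the members, 57 of 68 matched by symbol and had a promoter entry, with 73 starts. The receptor hexamer AGGTCA, its variant AGTTCA, the variant GGGTCA or else the variant GGTTCA, searched on both strands, was found in 22 of the 73 windows (30.1%), against 43.7% of 32851 windows of the same length over all genes. By call they stood in 3 of 15 windows of higher members (20%), 11 of 40 of lower members (27.5%) and 4 of 8 of members that did not pass (50%). Direct repeats of these hexamers spaced by 1, 2 or 5 bases occurred in 0 of the 73, against 0.588% overall. The E-box CACGTG, the core sequence bound by MYC-family proteins, was found in 5 windows (6.85%), against 7.15%. The median number of CG dinucleotides was 20 in member windows and 7 in all windows. A match is only a run of letters and says nothing of binding in these cells.

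Among the receptors of the semaphorins, 7 (70%) of the 10 tested plexins and neuropilins fell and 1 (10%) rose. Of all genes, 28.2% fell and 36.1% rose. Plxnb1 (NM_172775), the receptor of Sema4d, stood at 0.63, 0.54, 0.34 and 0.29 with RA and at −0.44, −0.73, −0.89 and −0.63 without. The groups were separate, with a change of −1.13 (SE 0.09, adjusted p = 0.000229). Plxna3, the plexin partner of neuropilin-2, fell by 0.82 (SE 0.11) and Plxnc1, the receptor of Sema7a, fell by 0.66 (SE 0.07). Plxna2 had −0.77 (SE 0.22) and was the only called member that did not move the same way in all 4 animals, being higher without RA in animal 1. Both neuropilins, the binding subunits for class 3 semaphorins, were lower, Nrp2 by −0.60 (SE 0.12) and Nrp1 by −0.36 (SE 0.09).

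Plxnd1, the receptor of Sema3e, had −0.38 (SE 0.11) with 0.06 on another probe, and Plxnb2 was the only plexin called higher, at 0.36 (SE 0.10). Plxna4 (−0.04, 95% interval −0.29 to 0.20) and Plxna1 (0.17, −0.02 to 0.36) did not pass. Several of these calls were lost when 1 animal was left out. Plxna2 did not pass without animal 2, 3 or 4 (adjusted p = 0.0921, 0.0936 and 0.0677), Plxnd1 without animal 1, 2 or 3 (0.0624, 0.0694 and 0.0569), Plxnb2 without animal 1, 2 or 4 (0.0842, 0.0917 and 0.0864), and Nrp1 without animal 1 or 2 (0.0636 and 0.073).

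The Eph receptors, the receptor tyrosine kinases that ephrins activate at cell contacts, changed in both directions. Of 11 tested, 4 (36.4%) were higher, near the 36.1% of all genes, and 4 (36.4%) lower, against 28.2%. Epha7 (NM_010141), which binds ephrin-As and also exists as truncated forms, stood at −3.54, −3.69, −3.16 and −3.56 with RA and at −1.60, −0.53, −0.97 and −1.37 without. Every RA-free array was higher, with a change of 2.37 (SE 0.21, adjusted p = 0.000337). Its other probes gave 1.94 and 2.77, the latter from a probe well above background on 0 of the 4 RA arrays, so that value is not exact. The normexp setting gave 1.09. Epha8 (NM_007939) moved the other way: it stood at 1.07, 0.90, 0.88 and 0.98 with RA and at 0.45, −0.32, −0.55 and −0.38 without. Its groups were also separate, with the smallest fall in animal 1 and a change of −1.16 (SE 0.15, adjusted p = 0.0012).

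The promoters of this oppositely moving pair are shown on the same terms, Epha7 at chr4:28812881-28813180 (+ strand, the lower in coordinate of the 2 starts listed) and Epha8 at chr4:136956767-136957066 (− strand). Both starts also lie inside the gene record.
Epha7: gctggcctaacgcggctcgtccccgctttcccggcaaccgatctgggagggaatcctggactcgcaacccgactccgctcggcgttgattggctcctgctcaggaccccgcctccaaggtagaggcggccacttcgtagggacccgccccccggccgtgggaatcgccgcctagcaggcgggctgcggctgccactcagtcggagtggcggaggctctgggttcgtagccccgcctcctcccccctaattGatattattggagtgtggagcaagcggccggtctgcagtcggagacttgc
Epha8: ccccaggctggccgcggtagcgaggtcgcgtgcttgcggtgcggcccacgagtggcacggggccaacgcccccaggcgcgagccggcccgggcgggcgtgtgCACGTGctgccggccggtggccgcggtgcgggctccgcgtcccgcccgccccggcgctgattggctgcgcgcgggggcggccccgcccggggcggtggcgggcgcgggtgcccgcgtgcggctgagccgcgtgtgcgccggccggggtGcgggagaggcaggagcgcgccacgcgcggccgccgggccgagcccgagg
Both were rich in CG dinucleotides, with 28 in Epha7 and 56 in Epha8. Neither window held a receptor hexamer, and Epha8 held the E-box CACGTG beginning 148 bases before its start.

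Of the other Eph receptors, Ephb3 (0.69, SE 0.12) and Epha1 (0.55, SE 0.16) rose, and Ephb1 (−0.94, SE 0.23), Epha10 (−0.82, SE 0.20) and Ephb6 (−0.41, SE 0.10) fell. Epha10 and Ephb6 lack kinase activity. Epha5 was called higher (0.64, SE 0.13) on its brighter probe and lower on another (−1.48, adjusted p = 0.0031), and with the mean of its probes it did not pass (−0.42, adjusted p = 0.0513). Ephb6 had 0.20 on its other probe. Epha2 had 1.04 with an interval from −0.03 to 2.11, and without animal 1 it was called (1.46, adjusted p = 0.0249). Ephb2 (−0.14) and Ephb4 (0.11) did not pass. Calls were lost for Epha1 without animal 2 or 4 (adjusted p = 0.0855 and 0.055), for Epha10 without animal 2, 3 or 4 (0.0547, 0.0578 and 0.0503), and for Ephb1 and Ephb6 without animal 4 (0.0506 and 0.053).

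Among the ephrins, the lipid-anchored A group changed and the transmembrane B group did not pass the test. All 5 ephrin-As were called, 3 lower and 2 higher, against 64.3% of all genes called (28.2% lower and 36.1% higher). Efna1 (NM_010107) stood at −0.80, −0.97, −0.59 and −0.96 with RA and at −2.13, −2.98, −2.07 and −2.72 without. The groups were separate, with a change of −1.65 (SE 0.13, adjusted p = 0.000232), or −0.80 under normexp. Efna3 (−0.41, SE 0.08, with −1.42 on another probe that was well above background on 0 of the 4 RA-free arrays and is not exact) and Efna2 (−0.31, SE 0.09) were lower, and Efna5 (0.70, SE 0.08) and Efna4 (0.47, SE 0.07) higher. The call for Efna2 was lost without animal 1, 2 or 3 (adjusted p = 0.072, 0.0729 and 0.0551). The ephrin-Bs had −0.20 (Efnb2, interval −0.62 to 0.21), −0.02 (Efnb1, −0.37 to 0.33) and 0.04 (Efnb3, −0.25 to 0.33), and Efnb2 passed without animal 1 (−0.41, adjusted p = 0.0226). Whether the A and B groups differ from each other was not tested. Efna1, Efna3 and Efna4 are neighbours in the RefSeq gene order with no other coding gene between them.

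The 5 tested Slits and Robo receptors were all called, against 64.3% of all genes. Of the 3 Slits, 2 were higher and 1 lower, and both tested Robo receptors were lower. Of all genes, 36.1% were higher and 28.2% lower. Slit1 (NM_015748), a secreted repellent, stood at −1.0, −1.53, −1.48 and −1.30 with RA and at 1.68, 0.65, −0.12 and 0.48 without. All RA-free arrays were higher, with a change of 2.00 (SE 0.21, adjusted p = 0.000656). Slit2 had 0.37 (SE 0.07), while Slit3 had −0.72 (SE 0.20), a call lost without animal 2 (adjusted p = 0.062) or animal 4 (0.068). Under spike-in scaling the calls of Slit2 (0.52, adjusted p = 0.158) and Slit3 (−0.57, adjusted p = 0.115) were lost. Robo1 (NM_019413) stood at 0.45, 0.18, −0.09 and −0.24 with RA and at −0.75, −1.20, −1.88 and −1.42 without. Robo2 (NM_175549) stood at −2.14, −2.38, −2.48 and −2.62 with RA and at −3.37, −3.35, −3.36 and −4.10 without. Neither receptor's groups overlapped, and the changes were −1.39 for Robo1 (SE 0.12, adjusted p = 0.000344) and −1.15 for Robo2 (SE 0.12, adjusted p = 0.000573). Robo2 was well above background on 3 of the 4 RA-free arrays and had −0.29 under normexp. Robo1 and Robo2 are neighbours with no other coding gene between them.

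**Figure D3:**
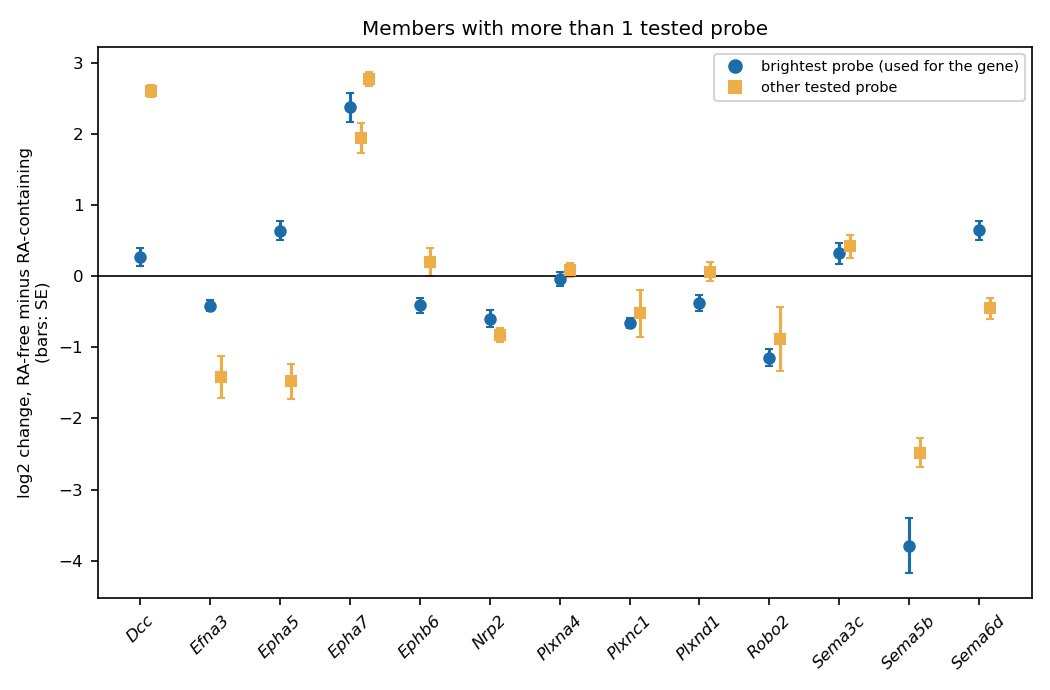
Change without RA minus with RA (log2, y axis) for every tested probe of the 13 members with more than 1 (x axis), with SE bars; blue circles are the brightest probes, which were used, and yellow squares the others, some of them not well above background in 1 medium. In 5 of the 13 genes a probe had the opposite sign.

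Probes of a gene read different stretches of its transcripts, and 13 members had more than 1 tested probe. In 8 of them all probes had the same sign. The opposite sign occurred in Epha5, Ephb6, Plxna4, Plxnd1 and Sema6d, so the direction of these genes depended on the probe. With the mean of their probes, Sema6d (0.09, adjusted p = 0.535), Ephb6 (−0.11, adjusted p = 0.322) and Plxnd1 (−0.16, adjusted p = 0.2) did not pass. Of the 45 called members, 44 moved the same way in all 4 animals. A call in the paired fit already favours such agreement, and the share over all called genes was not computed. The smallest of the 4 changes fell in animal 1 for 17 of the 45 (37.8%), near the 41.6% seen over all called genes.

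**Figure D4:**
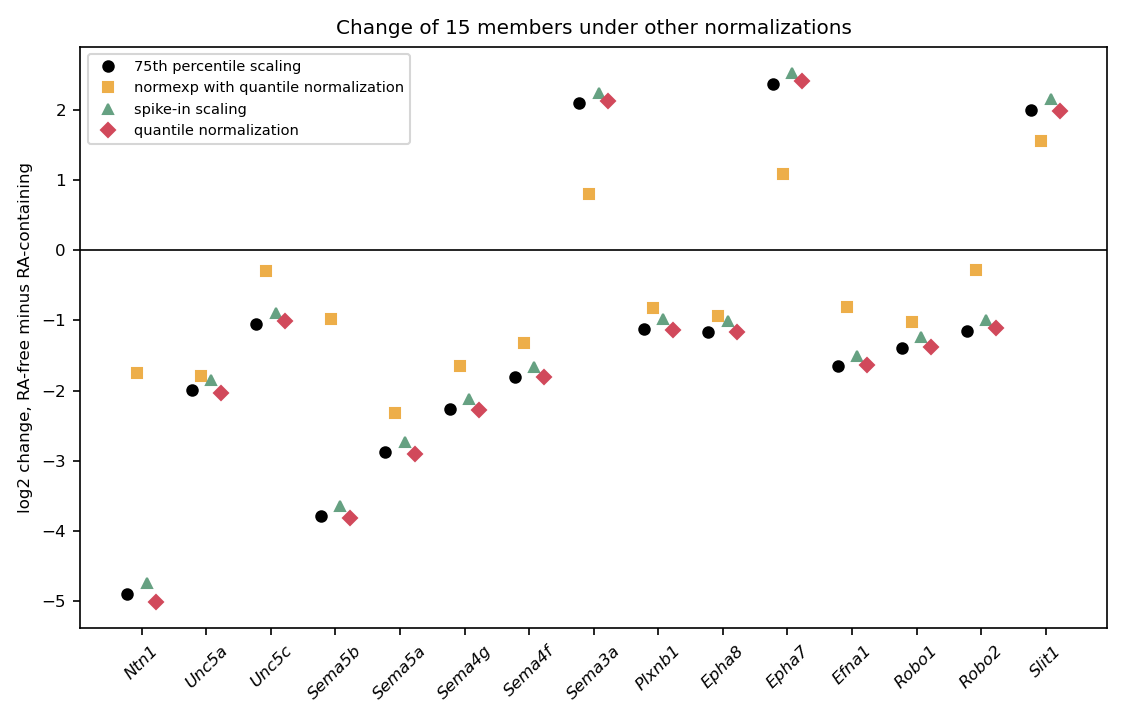
Change without RA minus with RA (log2, y axis) of the 15 members described array by array (x axis) under 75th percentile scaling, normexp with quantile normalization, spike-in scaling and quantile normalization, 1 symbol each. Signs are the same under all 4, and under normexp the dim genes Ntn1 (−1.75), Sema5b (−0.98), Sema3a (0.80) and Epha7 (1.09) lie nearer to 0.

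The proteins that act with these ligands and receptors were read from a list of 85 partners: other guidance cues and adhesion co-receptors, and the cytoplasmic mediators that carry the signal to actin and microtubules. Of the 79 tested, 42 (53.2%) were lower without RA and 10 (12.7%) higher, against the same background of 28.2% and 36.1%, with a median of −0.29. Under spike-in scaling 19 were lower and 2 higher, beside 13.2% and 20.4% of all genes. The largest falls were in Flrt2 (−2.71, SE 0.32) and Flrt3 (−2.55, SE 0.13), transmembrane proteins that bind Unc5 receptors and that for Flrt3 also bind Robo1, and in Pak3 (−2.24, SE 0.10), a kinase downstream of Rac and Cdc42. The largest rises were in Lrrc4c (1.19, SE 0.14), the receptor of netrin-G1, Sipa1l1 (0.79, SE 0.10), a Rap GTPase-activating protein, and Tiam1 (0.54, SE 0.07), a Rac exchange factor. A few more partners were picked after their values were seen. Dpysl3 (−1.5) and Crmp1 (−0.77), collapsin response mediators of Sema3a signalling, were also lower. So were Srgap3 (−1.54), a Slit-Robo GTPase-activating protein, and Neo1 (−0.33), the Dcc relative that binds netrins. Of their relatives, Dpysl2 (−0.59), Dpysl4 (−0.74) and Srgap1 (−0.64) were lower, while Dpysl5 (−0.14) and Srgap2 (0.08) did not pass. Cdc42 (0.44), Rhoa (0.32) and Cfl1 (0.34) were among the 10 partners called higher.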

How the data were processed

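RNA of 8 sphere cultures was hybridised in 1 colour (Cy3) to Agilent arrays of 62976 spots (59305 not controls) on 1 slide. Total RNA passed a quality minimum per the labels' protocols, which name a pair of labelling amounts without tying them to arrays. The deposited intensity values are the processed signals of Feature Extraction 11.5.1.1, per the file headers already background-subtracted. A deposited table of log2 values by the authors was used as an alternative; set against the scanner values here after each probe was centred on its mean over the arrays, its columns correlated at 0.9999 or more, and at least 99.5% of probes in each column lay within 0.01 of a constant offset. Its values are therefore centred per probe and run in the same direction, and its scaling method is unknown (column medians −0.23, −0.22, 0.02 and −0.01 for RA arrays 1 to 4 and −0.07, 0.01, 0.17 and 0.20 for RA-free arrays 1 to 4).

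Here log2 signals were set relative to each array's 75th percentile, outlier spots were dropped (64 probes left out), and spots of a probe were averaged. Probe accessions were named through RefSeq (GRCm38.p6), giving 27235 of 55681 probes a symbol, and 28446 none. The brightest of a gene's probes well above background on 4 of 8 arrays was used. Changes were tested with limma 3.58.1 in R 4.3.3 (two-sided, Benjamini-Hochberg adjusted p under 0.05) with the animal as a fixed block, since ganglion cells were split between media; after removing group means, same-numbered arrays correlated at 0.52, 0.30, 0.19 and 0.33. With 4 arrays a group, the number of arrays limits precision. The fit was tested on simulated data.

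For a gene not well above background on any array of a group, "at least" folds set the brighter group's mean against, per array, the higher of its own signal and the lowest signal well above background. Array values are given for members called with a change of at least 1 (at most 5 per family, or the largest called), and the 3 largest called changes each way for partners. The members, lists and rules were chosen with earlier results of these data known. Alternatives were other background corrections, scalings, filters, probe rules, the deposited table, no block, and leaving out each animal. Of the cell type marker lists, 1 gene is not reported here and was left out of the values.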

Additional observations from a re-analysis of the deposited data

Results flagged for a closer look

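Within the 4 arrays of a medium, 1 array stood apart from the other 3 (Dixon's test at the 95% level) in 9 of the 114 groups formed by the 57 tested members. Chance alone gives about 1 in 20 such groups. On RA arrays, Plxna4 stood at 4.17 in animal 1 (3.57 to 3.67 in the others), Ephb4 at −4.76 in animal 2 (−4.20 to −4.10) and Epha2 at −4.85 in animal 2 (−3.95 to −3.83). Slit2 stood at 2.16 on RA array 3 (2.38 to 2.41) and Nrp2 at 2.71 on RA array 4 (2.97 to 3.01). On RA-free arrays, Plxnc1 stood at −0.57 in animal 3 (−0.38 to −0.35), Efna2 at −0.13 in animal 3 (0.09 to 0.12), Epha1 at −1.65 in animal 4 (−2.26 to −2.22) and Robo2 at −4.10 in animal 4 (−3.37 to −3.35).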

How the results depend on the processing

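Scaling to spike-in controls left 15 members lower, a member median of −0.21, 4548 genes called in all, and 2 partners higher and 19 lower. It shifted the median of all genes to 0.22, with 20.4% of all genes higher and 13.2% lower. The cause was not tested. Of the 45 member calls, 43 were kept with normexp and quantile normalization, 40 with quantile normalization alone (9 higher and 31 lower), 43 with the percentile of detected probes, 25 with spike-ins, 45 in the authors' deposited table, 36 without a filter on dim probes, 41 with the mean of a gene's probes, and 38 of the 38 still measured with a filter on all 8 arrays. Without the replicate block, 13 members were higher and 29 lower, beside 33% and 26.3% of all genes. There 42 of the 45 calls were kept, and 8022 genes were called. Leaving out 1 animal at a time gave 11 to 13 members higher, 23 to 29 lower, a median of −0.41 to −0.30 and 7350 to 8245 genes called, with 9 partners higher and 30 to 40 lower. The shares of all genes were then 30.1% to 34.4% higher and 24.1% to 26.5% lower.

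Among single genes, the sign turned mainly for members that had not passed. Dcc was −0.16 with normexp and −0.17 with quantile normalization, and Efnb3 was −0.048 with quantile normalization and −0.054 with detected probes. Spike-in scaling gave 0.10 for Plxna4, 0.0091 for Ephb2, 0.13 for Efnb1 and 0.037 for Unc5b, and the mean of its probes gave 0.023 for Plxna4. Leaving out 1 animal at a time gave −0.13 to 0.030 for Plxna4, −0.043 to 0.17 for Efnb3, −0.22 to 0.0085 for Unc5b, −0.10 to 0.15 for Efnb1 and −0.10 to 0.38 for Ephb4. Among called members, Epha5 became −0.42 with the mean of its probes. The normexp setting was chosen after seeing the data: it used median signals, and the planned version on mean signals was not run because the columns used here hold none. Signal over background limits Ntn1, Sema5b and Sema3e, whose RA-free levels are bounds.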
